A study of Mus musculus with 5 samples.

Results

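Ectoderm-only regions inside genes are stretches of accessible chromatin found in limb ectoderm and not in forebrain, lying within the body of a protein-coding gene and away from its ends. A region belonged to the set when it had a peak in all 4 ectoderm lists and none in the forebrain list, with its midpoint inside a protein-coding gene and more than 2.5 kb from any protein-coding gene end. There were 2157 such regions on chromosomes 1 to 19 and X, which is 0.932% of the 231437 merged regions of the series and 40.1% of its 5379 ectoderm-only regions. Members were chosen by the presence and absence of peaks, so their openness in ectoderm and lack of a forebrain peak are descriptions and carry no test.

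The libraries came from CD1 mouse embryos and the labels name no mutation or treatment. Distal forelimb ectoderm and distal hindlimb ectoderm were taken at E14.5, with 2 libraries each, and forebrain at E13.5, with 1 library. Trypsin separated the ectoderm from the mesoderm, whereas collagenase dissociated the forebrain, so effects of tissue, stage and enzyme cannot be told apart. Whether the 2 libraries of a limb stem from different animals is not stated in the labels. Chromatin was profiled by ATAC-seq, in which a transposase cuts and tags accessible DNA.

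Accessible DNA inside genes is mostly found in introns, and known functions of such regions include enhancers of the host gene, enhancers of a neighbouring gene and start sites of shorter transcripts. Limb ectoderm at this stage is a young stratifying epidermis. Its basal cells are known to depend on the transcription factor p63, on desmosomes and adherens junctions between cells, and on hemidesmosomes that hold them to a laminin-rich basement membrane. The table of gene models used here gives gene ends without exons, so exons and introns were not told apart.

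Peak lists held 73767 and 73627 peaks in forelimb replicates 1 and 2, 51392 and 78075 for the hindlimb pair in the same order, with 120280 for forebrain. Gene ends of keratinocyte markers had a peak within 1 kb in 7, 8, 4 and 7 of 8 genes in the 4 ectoderm lists, in the order forelimb replicate 1, forelimb replicate 2, hindlimb replicate 1 and hindlimb replicate 2. That order is kept for all values below. Forebrain had such peaks in 4 of the 8, as many as hindlimb replicate 1, so these ends did not set every ectoderm list apart from forebrain. Neuron markers had gene-end peaks in 2, 2, 0 and 0 of 7 genes in ectoderm and 7 of 7 in forebrain, and neural progenitor markers in 3 of 7 in each ectoderm list and 7 of 7 in forebrain. Limb mesenchyme markers had them in 6, 5, 3 and 6 of 7 genes, and in 6 of 7 in forebrain, so these ends did not separate the tissues either. The counts were 3 of 6 melanocyte markers in each ectoderm list, 3, 2, 2 and 2 of 6 endothelial markers, and 2, 2, 1 and 1 of 6 blood markers. In forebrain they were 4, 4 and 3. No ectoderm list had an end peak at the melanocyte genes Tyr, Tyrp1 and Sox10, the endothelial genes Cdh5, Pecam1 and Emcn, or the blood genes Ptprc, Csf1r and Gata1. In bulk libraries, a region open in few cells and a region weakly open in many cannot be told apart.

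Of all 91466 regions inside genes, 2.36% were ectoderm-only. Among the 5034 with a peak in all 4 ectoderm lists, 42.8% lacked a forebrain peak. Over the whole genome 25.7% (95% exact interval 25.1 to 26.3) of 20947 such regions did. The whole genome includes gene ends, which the rule leaves out of the set. The part of gene ends in this difference was not tested. With each ectoderm list in the place of forebrain, the count inside genes was 147, 162, 2236 and 95. These regions were missing from that list and present in the other 4. Hindlimb replicate 1, the shortest list, thus lacked 2236 regions of this kind and forebrain 2157. Without it the set would hold 4383 regions in place of 2157. Absence of a peak is absence of a call at the deposited threshold and does not show closed chromatin.

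The ectoderm-only regions that coincided with an annotated transcript start show which genes have an internal start in open ectodermal chromatin. RefSeq transcript starts (GRCm38.p6) came with windows of 250 bases before to 50 after the start. Of the regions, 29 held the start itself, or 1.34% (0.902 to 1.93), and 21 of them held a protein-coding start. Without hindlimb replicate 1 the count was 48, and with regions of high local background left out it was 8. The share was 0.914% among forebrain-only regions inside genes and 25.8% among regions inside genes with a peak in all 5 lists. Over all regions inside genes it was 1.80%, which lies within the interval of the set, so such starts were no more common in the set than inside genes at large. For protein-coding starts the shares were 0.974% in the set and 1.45% over all regions inside genes. The 21 regions lay at coding starts of Gramd1c, Rab15, Bdnf, S100a3, Wdr49, Vav3, Lamb3, Wnt6, Dst, Sema4a, Dcaf4, Tmem40, Ggta1, Mrtfa, Mia2, Elf1, Cers3, Usp6nl, Mylk3, Capg and Elavl4. The genes include Dst and Lamb3 of the hemidesmosome and basement membrane, Wnt6, a Wnt ligand, S100a3, a calcium-binding protein of hair, and Cers3, a ceramide synthase of the epidermal barrier. Neuronal genes were among them too, with the neurotrophin gene Bdnf and the RNA-binding protein gene Elavl4.

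The 250 bases before the start are printed for 6 of these windows, chosen for their epidermal host gene or for a match to the AP-1 motif TGANTCA, the site of the Fos and Jun factors. They run 5′ to 3′ on the strand of the transcript, in lower case, with AP-1 matches in capitals, from RefSeq on GRCm38.p6. They lie at chr1:34160010-34160259 (Dst, plus strand), chr1:193301744-193301993 (Lamb3, plus strand), chr3:109573757-109574006 (Vav3, plus strand), chr14:79515424-79515673 (Elf1, plus strand), chr12:76818375-76818624 (Rab15, minus strand) and chr11:16830679-16830928 (Egfros, a long noncoding RNA within Egfr, minus strand).
Dst: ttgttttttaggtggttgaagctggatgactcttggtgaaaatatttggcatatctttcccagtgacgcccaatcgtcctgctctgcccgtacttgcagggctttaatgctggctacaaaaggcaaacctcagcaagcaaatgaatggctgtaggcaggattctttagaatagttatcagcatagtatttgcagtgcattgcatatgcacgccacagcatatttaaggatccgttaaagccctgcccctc
Lamb3: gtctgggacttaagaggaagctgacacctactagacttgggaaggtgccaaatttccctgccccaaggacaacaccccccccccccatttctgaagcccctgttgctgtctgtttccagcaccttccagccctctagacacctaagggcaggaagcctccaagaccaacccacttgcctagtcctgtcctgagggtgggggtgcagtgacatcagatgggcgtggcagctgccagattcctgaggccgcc
Vav3: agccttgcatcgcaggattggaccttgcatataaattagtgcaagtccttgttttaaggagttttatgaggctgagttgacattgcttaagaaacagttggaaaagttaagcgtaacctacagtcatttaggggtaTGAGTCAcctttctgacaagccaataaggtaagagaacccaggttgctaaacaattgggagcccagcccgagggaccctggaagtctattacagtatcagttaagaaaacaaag
Elf1: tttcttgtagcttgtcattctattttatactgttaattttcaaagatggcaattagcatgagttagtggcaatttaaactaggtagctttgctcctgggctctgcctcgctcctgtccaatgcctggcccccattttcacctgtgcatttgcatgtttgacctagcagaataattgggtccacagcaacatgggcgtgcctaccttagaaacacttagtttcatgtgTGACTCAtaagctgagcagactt
Rab15: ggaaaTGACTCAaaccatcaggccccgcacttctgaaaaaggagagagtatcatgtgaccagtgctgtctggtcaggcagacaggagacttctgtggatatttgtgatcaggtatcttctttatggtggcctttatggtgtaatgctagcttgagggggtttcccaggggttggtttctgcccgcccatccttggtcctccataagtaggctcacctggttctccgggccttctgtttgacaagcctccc
Egfros: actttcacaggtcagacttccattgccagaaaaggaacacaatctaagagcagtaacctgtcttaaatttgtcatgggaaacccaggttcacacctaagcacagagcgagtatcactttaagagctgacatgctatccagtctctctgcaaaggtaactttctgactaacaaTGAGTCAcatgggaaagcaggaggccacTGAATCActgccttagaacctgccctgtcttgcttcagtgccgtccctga
AP-1 matches were present before the starts of Vav3, Elf1, Rab15 and Egfros, with a pair of them in Egfros, and none was found in the windows of Dst and Lamb3.

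The Dst start lay within the region chr1:34159895-34160454, whose midpoint was inside the gene and 252286 bp from its 5′ end. Dst encodes cytoskeletal linker proteins of several tissues, among them the epithelial form that ties keratin filaments to hemidesmosomes. Fold enrichment of its peaks was 5.57, 5.84, 6.19 and 11.9, and summits lay 104, 75, 143 and 127 bp from the start. The fold is the authors' ratio of reads at the summit to the local background and ranks peaks within its own list. At Lamb3, which encodes the beta chain of the epidermal laminin, the region chr1:193301776-193302333 had folds of 7.36, 5.81, 4.56 and 7.61. Its summits were 6, 6, 76 and 45 bp from the start printed here. Vav3, an activator of small GTPases of the cytoskeleton, had an internal start in a region with its midpoint 233402 bp into the gene. Its folds were 7.92, 9.35, 5.38 and 8.64. Elf1, an ETS transcription factor, had an internal start with folds of 4.43, 6.21, 3.61 and 8.29 and summits 14, 21, 28 and 19 bp away. The region in Rab15, a small GTPase gene, covered starts on both strands, that of Rab15 itself and that of the noncoding Gm34988, with folds of 7.06, 7.43, 5.24 and 9.34. Egfros lay in a region of Egfr, the epidermal growth factor receptor gene, with folds of 7.77, 6.91, 5.80 and 7.98 and summits 28, 36, 54 and 43 bp from its start. In each of these 6 regions hindlimb replicate 2 had the highest fold or, in Vav3, forelimb replicate 2 did.

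In the 250 bases before each start, AP-1 letters were found on either strand in 3 of the 22 coding starts of the set (13.6%, 2.91 to 34.9) and in 6.18% of the 21020 coding starts searched in the same way. The interval holds the share over all windows. Matches to GGAATG, the core of TEAD sites, were in 3 of 22 windows against 11.6% of all, and to the KLF-type CCNCNCCC in 11 of 22 against 53.4%. TAATTA of homeobox factors and the grainyhead-like AACNGGTT were in 0 of 22 (0 to 15.4%), against 4.25% and 1.71%. With so few windows no motif could be told from its share over all starts. Some motifs can overlap each other in a window, and a match is a run of letters, not a bound site.

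The 12 regions with the highest standing in all 4 lists lay in genes of varied function. Standing was the lowest of a region's 4 percentiles by −log10 p, each within its own list. In first place was a region of Crybg3 at chr16:59566411-59566935, with folds of 13.2, 15.5, 10.7 and 17.97 and a lowest percentile of 97.5. Next came a region of Unc13c, a synaptic vesicle gene, at chr9:73896139-73896770, with folds of 16.5, 14.9, 11.5 and 20.6, and one of Elf1 at chr14:79527656-79528156, with 13.3, 13.4, 11.5 and 16.9. The rest lay in Kctd16, Zfp64, Hmgcs1, Dmd, Efcab1, Wls, Pik3r4, Bfsp1 and E2f7. Hmgcs1 encodes an enzyme of cholesterol synthesis, Dmd is the dystrophin gene, Wls is needed for Wnt secretion, and E2f7 is a cell-cycle repressor. In Wls the folds were 11.1, 10.1, 10.3 and 16.7, and in Hmgcs1 they were 13.3, 12.7, 9.43 and 17.8. Hindlimb replicate 2 had the highest fold in 11 of the 12, and Kctd16, with 17.6, 15.3, 19.3 and 17.4, was the exception. Local background was over 2 times the library rate in at least 1 list for 11 of them, the exception being Dmd at 1.56.

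**Figure D1:**
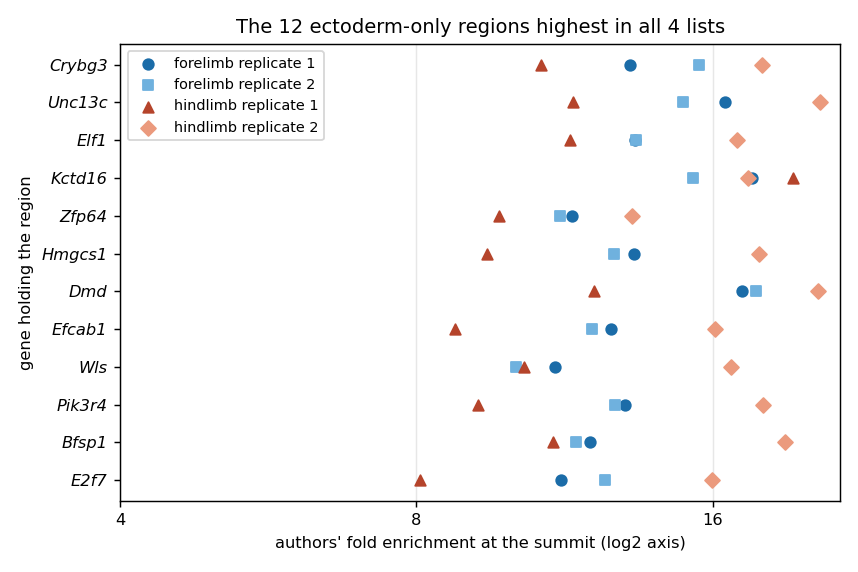
Fold enrichment at the summit (log2 axis) of the 12 ectoderm-only regions inside genes with the highest lowest percentile, by the gene that holds each. Points are single libraries, 2 per limb, and the Crybg3 region runs from 10.7 in hindlimb replicate 1 to 17.97 in hindlimb replicate 2.

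Over all 2157 regions the median fold was 5.42, 5.50, 3.89 and 7.29. The lists differed most in hindlimb replicate 1, where 1003 regions (46.5%, 44.4 to 48.6) had their lowest percentile, against 614, 402 and 138 in forelimb replicate 1, forelimb replicate 2 and hindlimb replicate 2. Median percentiles were 74.8, 77.5, 72.2 and 82.8, after a choice that required a peak in all 4 lists. The lowest of a region's 4 percentiles had a median of 61.2, below the 69.0 of regions inside genes with a peak in all 5 lists. Values at the edge of the rule were lower. The members with the lowest −log10 q, in Rarb, Aim2 and Slc2a3, had 1.31 in hindlimb replicate 1, with a fold of 2.42 there. Nearest inside the 2.5 kb limit lay regions of Fam160b2 and Cplx1, among others, at 2503 and 2524 bp from a gene end, and nearest outside it were regions of Gstcd, Secisbp2l and Sult5a1, at 2467, 2457 and 2432 bp.

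The regions were spread over many genes. They lay in 1572 genes, which is 9.42% of the 16691 protein-coding genes with an interior beyond 2.5 kb from gene ends, and 22 regions lay in 2 genes at once. Of the host genes, 1181 held 1 region, 267 held 2 and 124 held 3 or more. Host genes were long, with a median interior of 110 kb against 20.8 kb over all genes. Genes with an interior up to 25 kb held a region in 1.92% of cases (1.65 to 2.22), those of 25 to 100 kb in 10.5%, those of 100 to 400 kb in 33.5% and those over 400 kb in 61.1% (55.7 to 66.3). Per Mb of interior the numbers were 2.03, 2.37, 2.63 and 1.90, so the density changed far less with length than the share of host genes. Over all genes it was 2.31 per Mb, against 36.7 per Mb for forebrain-only regions, which need a peak in 1 list where the set needs 4. With lists cut to equal length these densities were 2.60 and 11.4 per Mb, and without hindlimb replicate 1 they were 4.70 and 37.3. Counts are therefore given per Mb below.

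**Figure D2:**
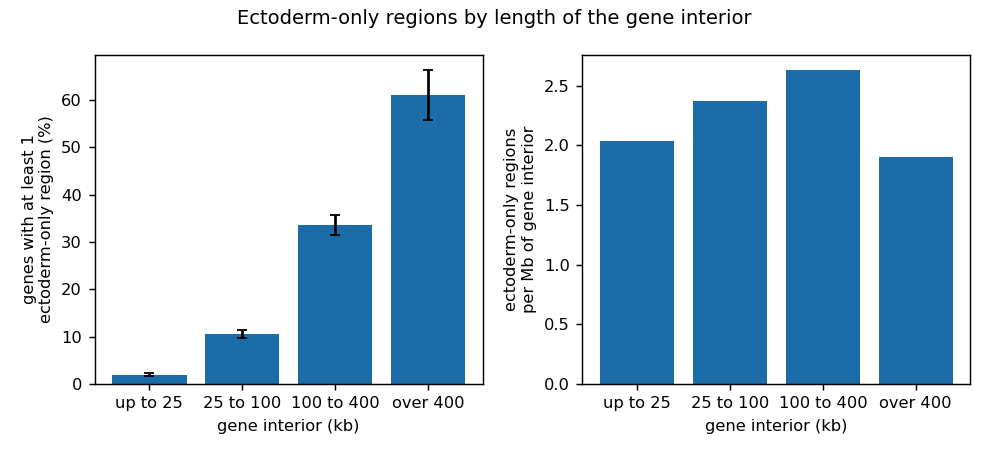
Share of protein-coding genes with at least 1 ectoderm-only region (left, with 95% exact intervals) and ectoderm-only regions per Mb of gene interior (right), by the length of the interior. The share rises from 1.92% to 61.1%, while the density stays between 1.90 and 2.63 per Mb.

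Most regions lay on chromosomes 1 to 19, with 2142 there and 15 on X. Neighbouring regions within the same gene were a median of 56720 bp apart (quartiles 18142 and 140136), and 46 of 607 such pairs lay within 5 kb. The nearest forebrain peak was a median of 5145 bp away (quartiles 2277 and 10789), and 255 regions had one within 1 kb.

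Genes of epithelial adhesion held more of the regions per Mb than genes at large. The gene lists were chosen with earlier results of these data known, and no test was made over them. Genes of cell-cell junctions held 27 regions in 16 of 36 genes, or 8.76 per Mb, which is 3.79 times the density over all genes. Hemidesmosome and basement membrane genes held 19 in 9 of 19 genes, or 6.74 per Mb. Epidermal transcription factor genes held 15 in 10 of 27, or 5.22 per Mb. The density of these 3 lists was above that of all genes in each of the 16 settings examined, which reuse the same 5 peak lists. They held 46, 32 and 24 regions without hindlimb replicate 1. For forebrain-only regions the densities were 40.2, 44.3 and 56.4 per Mb, against 36.7 over all genes. The ectoderm-only share of ectoderm-only and forebrain-only regions was 17.9% (12.1 to 24.9) in junction genes, 13.2% (8.13 to 19.8) in hemidesmosome genes and 8.47% (4.82 to 13.6) in epidermal transcription factor genes, against 5.92% (5.69 to 6.17) over all genes. The interval of the epidermal transcription factor list holds the 5.92%, so that list was dense in both kinds of region. Local background moved with the counts of the 3 lists. With regions left out whose local background was over 2 times the library rate in any ectoderm list, the 61 regions of the 3 lists fell to 25, and its part in them was not tested.

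**Figure D3:**
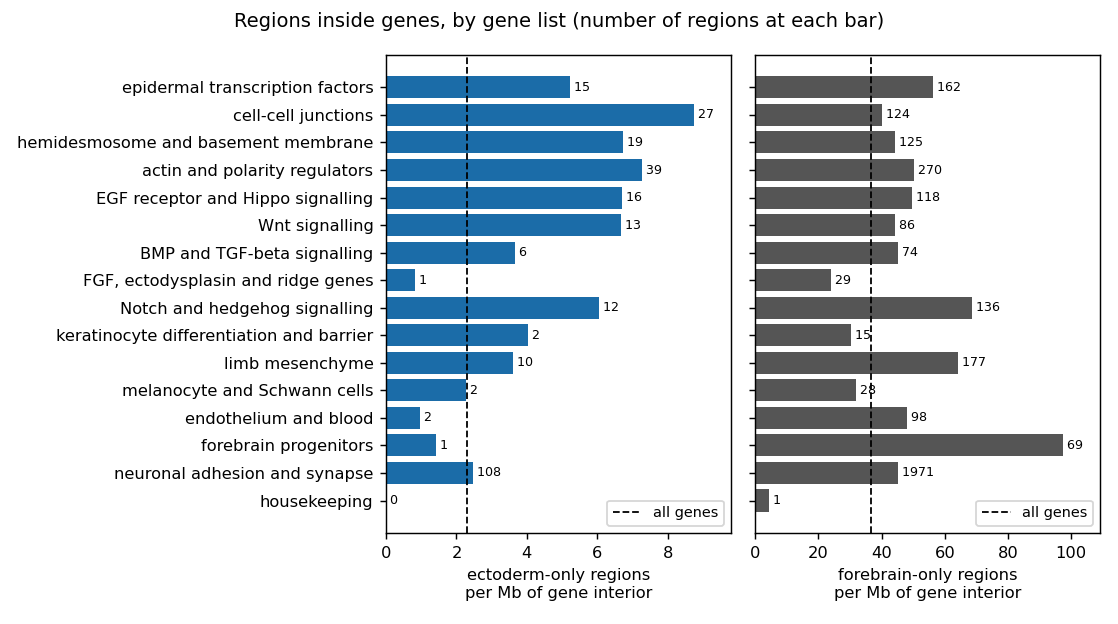
Ectoderm-only (left) and forebrain-only (right) regions per Mb of gene interior in 16 gene lists, with the number of regions at each bar and the density over all genes as a dashed line. Junction genes reach 8.76 ectoderm-only regions per Mb against 2.31 over all genes, and the housekeeping list, with 0.229 Mb of interior, has 0 regions.

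Among transcription factors, Trp63 held 5 regions in 203 kb of interior, or 24.6 per Mb, beside 5 forebrain-only regions. Trp63 encodes p63, the factor known to set up stratified epithelia. Its region chr16:25779971-25780686 had folds of 11.1, 12.9, 7.38 and 17.7. The region chr16:25843623-25844087 had 3.09, 4.21, 7.599 and 12.4, the lowest in forelimb replicate 1. The other 3 had folds between 2.93 and 9.84. With 5 as the least −log10 q in every list the Trp63 count was 2, and with lists cut to equal length it was 2 as well. Grhl3, a regulator of the skin barrier, held 2 regions and no forebrain-only region in 26.7 kb, with folds of 7.16, 4.46, 4.21 and 6.21 in one and 3.87, 4.76, 2.76 and 3.08 in the other. Grhl2, of the same family, the chromatin organiser Satb1 and the Wnt-pathway repressor Tcf7l1 held 1 each. The Satb1 region had folds of 6.38, 9.27, 6.80 and 13.4. Local background was over 2 times the library rate in at least 1 list at both Grhl3 regions and at those of Satb1 and Tcf7l1.

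Junction genes were led by Plekha7, an adherens junction protein, with 5 regions in 180 kb. A group of 4 lay close together, the first at chr7:116187553-116187916 and the last at chr7:116198227-116198877, and the last of these had a fold of 2.58 in hindlimb replicate 1. The strongest, chr7:116192798-116193506, had folds of 5.52, 6.67, 5.03 and 6.74, with summits spanning 11 bp. Pkp1, the desmosomal plakophilin of suprabasal epidermis, held 3 in 42.8 kb, or 70.1 per Mb. Folds at its region chr1:135900018-135900516 were 6.33, 7.85, 6.16 and 10.6. All 3 Pkp1 regions had a local background over 2 times the library rate in some list, and so did 4 of the 5 in Plekha7. Afdn, which encodes the junction protein afadin, held 2 regions beside 1 forebrain-only region, and the polarity genes Pard3 and Magi1 held 3 and 2. Pard3 and Magi1 held 6 and 7 when hindlimb replicate 1 was left out.

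At the basement membrane, Fras1, Frem2, Dst and Lama3 held 3 regions each. Lama3 encodes the alpha chain of the epidermal laminin, and Fras1 and Frem2 encode proteins that anchor embryonic epidermis to the dermis. The Fras1 region chr5:96680875-96681567 had folds of 7.43, 7.35, 7.16 and 10.96. In Frem2 the region chr3:53599264-53599737 had 7.18, 6.19, 6.63 and 8.07. The midpoints of the 3 Dst regions lay between 232399 and 252286 bp from its 5′ end, and 27 forebrain-only regions were spread over the gene. Without hindlimb replicate 1, Dst and Fras1 had 6 regions each and Lama3 had 5.

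**Figure D4:**
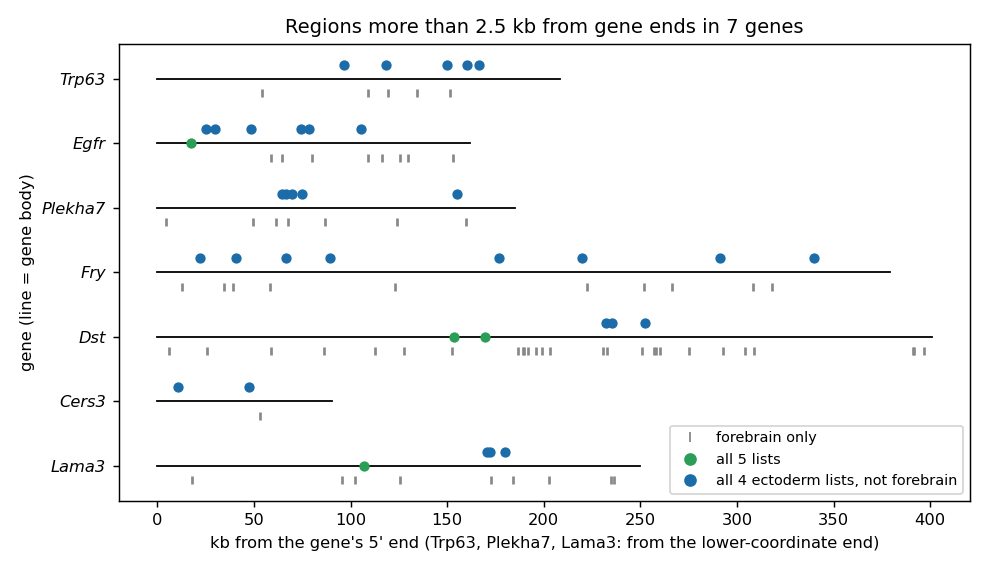
Positions of ectoderm-only (blue), all-5-list (green) and forebrain-only (grey) regions along 7 genes, in kb from the 5′ end, or from the lower-coordinate end where the strand was not in the tables. Blue points are those of the set, 8 in Fry, 6 in Egfr, 5 each in Trp63 and Plekha7, 3 each in Dst and Lama3, and 2 in Cers3.

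Genes of actin and polarity regulation held 39 regions in 17 of 28 genes, or 7.27 per Mb, above all genes in each of the 16 settings and 63 regions without hindlimb replicate 1. Fry, a scaffold of NDR kinases, held 8 regions in 374 kb beside 10 forebrain-only regions. Its strongest, chr5:150457973-150458704, had folds of 8.38, 9.91, 6.45 and 13.6, and the other 7 had folds between 2.97 and 8.19. Of its 8 regions, local background was over 2 times the library rate in 1. The Rac activator Tiam1 held 5 regions beside 31 forebrain-only ones, and a peak at its gene ends was called in forebrain and in no ectoderm list. The GTPase activator Trio held 4, Vav3 held 3 and the formin gene Daam1 held 2.

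Genes of 3 further signalling lists were also dense. The list of EGF receptor and Hippo genes held 16 regions in 8 of 21 genes (6.72 per Mb), Wnt genes 13 in 12 of 25 (6.69 per Mb) and Notch and hedgehog genes 12 in 8 of 20 (6.06 per Mb), all denser than genes at large in each of the 16 settings. The Wnt count was 25, and that of Wwc1 was 5, without hindlimb replicate 1. Egfr itself held 6 regions in 157 kb, or 38.3 per Mb, beside 8 forebrain-only regions. The one at Egfros stood highest, and the region chr11:16826584-16826971 lowest, with folds of 3.36, 3.42, 2.44 and 4.13. Under the stricter −log10 q minimum of 5 the Egfr count was 2. Wwc1, an upstream Hippo regulator, held 3 regions, its relative in the pathway Amotl1 held 1, and the effector gene Tead1 held 1, or 2 without forelimb replicate 1. The Amotl1 region chr9:14559469-14560039 had folds of 12.9, 12.6, 6.77 and 14.3, and Amotl1 was among 10 host genes whose end peaks were found in all 4 ectoderm lists and not in forebrain. Erbb4, another receptor of the EGF family, held 2 weak regions that were lost under the same minimum.

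Of the Wnt genes, Lef1, a transcription factor of the pathway and of hair follicle development, held 2 regions. The R-spondin receptor gene Lgr4, the ligand genes Wnt4 and Wnt6 and the receptor-removing ligase gene Znrf3 held 1 each. The Lgr4 region chr2:109969782-109970307 had folds of 9.09, 8.82, 7.44 and 13.96, and its 4 summits lay within 4 bp. Folds were 5.99, 5.07, 4.47 and 7.44 in Wnt4 and 4.20, 4.87, 5.33 and 8.07 in Wnt6, where local background reached 4.20 and 4.11 times the library rate. Both Lef1 regions had a forebrain peak within 1 kb, at 822 and 404 bp, and the Wnt6 region had one at 145 bp. The hedgehog effector Gli2 and the Notch co-activator Maml2 held 3 regions each, and Notch2, Hhip and Maml3 held 1 each. Leaving out hindlimb replicate 1 gave 5 in Maml2 and 2 each in Hhip and Znrf3, and leaving out hindlimb replicate 2 gave 2 in Wnt6. The Gli2 region chr1:118873425-118874013 had folds of 10.6, 7.56, 7.32 and 12.7.

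BMP and TGF-beta genes held 6 regions in 5 of 21 genes (3.67 per Mb), with 2 in the BMP receptor gene Bmpr1b and 1 each in Smad1, Tgfbr3, Tgfbr2 and Acvr1. Without hindlimb replicate 1 the BMP list held 15, Tgfbr3 held 3, and Smad1 and Tgfbr2 held 2 each, and without hindlimb replicate 2 Tgfbr3 held 2. Keratinocyte differentiation genes held 2 in 1 of 17 genes (4.04 per Mb), both in Cers3, and 4 without hindlimb replicate 1. Genes of FGF signalling, ectodysplasin and the apical ridge held 1 region in 19 genes (0.822 per Mb), in the ectodysplasin adaptor gene Edaradd, with folds of 7.62, 6.97, 5.68 and 11.8. That list was below all genes in each of the 16 settings, with 2 regions without forelimb replicate 1. At the density over all genes it would hold 2.81 regions, so the 1 found does not set it apart. The interval of its ectoderm-only share, 3.33% (0.0844 to 17.2), holds the 5.92% over all genes. Its median interior was 18.2 kb and 26 genes were listed, of which 7 had no interior.

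Of the lists for other cell types, limb mesenchyme was denser than all genes in each of the 16 settings and endothelium and blood in 0. The melanocyte and Schwann cell list was denser in 4 of the 16, forebrain progenitors in 2 and neuronal adhesion genes in 14. Limb mesenchyme genes held 10 regions in 4 of 21 genes (3.62 per Mb), 6 of them in Sox5, and Meis2, Runx2 and Lmx1b held the rest. For forebrain-only regions the mesenchyme density was 64.1 per Mb, against 36.7 over all genes. The ectoderm-only share was 5.35% (2.59 to 9.61), against 5.92% over all genes, so this list was dense in both kinds of region. Runx2 and Lmx1b held 2 each without hindlimb replicate 1, and Runx2 held 2 without forelimb replicate 2. The gene ends of mesenchyme markers carried peaks in ectoderm, as given above, and their part in these regions was not tested. Melanocyte and Schwann cell genes held 2 (2.28 per Mb), in Oca2 and Dct, endothelial and blood genes 2 (0.978 per Mb), in Tek and Cd44 (2 in Cd44 without forelimb replicate 2), and forebrain progenitor genes 1 (1.41 per Mb), in Tcf4. At the density over all genes these lists would hold 2.03, 4.73 and 1.64 regions. Without hindlimb replicate 1 the mesenchyme, endothelial and blood, progenitor and neuronal adhesion lists held 16, 6, 3 and 189. Genes of neuronal adhesion and synapses held 108 regions in 31 of 42 genes. Their interiors were long, with a median of 1016 kb, and the density was 2.47 per Mb, or 1.07 times that of all genes and 0.92 times without hindlimb replicate 1. Macrod2, Lsamp, Lrp1b and Ptprd of this list were also among the genes with most regions over all genes. Macrod2, an ADP-ribosyl hydrolase gene placed in this list, alone held 11 of the 108. Housekeeping genes held 0 regions in 12 genes with an interior, which span 0.229 Mb and would hold 0.529 regions at the density over all genes, so the 0 does not set them apart.

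The gene with most regions was Macrod2, a gene with 1983 kb of interior that encodes an ADP-ribosyl hydrolase, with 11 regions beside 99 forebrain-only ones, or 5.55 per Mb. Lsamp held 8, and Lrp1b and Ptprd held 6 each. Zfhx3, Etl4 and Sox5 held 6 each, and Sfi1, Nxn and Col19a1 held 5. Macrod2 held 16, Lsamp 14 and Ptprd 13 when hindlimb replicate 1 was left out. Dense genes among those with 3 or more regions included 1600014C10Rik (321 per Mb), Anxa2 (90.6), Sfi1 (77.3), Pkp1 (70.1), Efcab1 (51.9), Cwc22 (49.8), Bcl11a (43.5), Egfr (38.3) and Nxn (36.5). Median local background was 15.7 times the library rate in 1600014C10Rik and 8.22 times in Cwc22, against 1.67 in Egfr. Its part in their counts was not tested. With regions of high local background left out, neither 1600014C10Rik, Cwc22, Anxa2 nor Pkp1 kept a region, and Sfi1 had 2. Without forelimb replicate 1 there were 8 in Sfi1 and 5 in Cwc22.

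Along the gene, the regions were spread rather evenly. The strand was known for 1683 of them. In 5 equal parts of the gene from the 5′ end they numbered 18.8%, 21.6%, 21.9%, 22.1% and 15.6%. The parts were of the whole gene, though the rule leaves out 2.5 kb at its ends. The first and last parts thus hold less eligible length, most of all in short genes. Forebrain-only regions inside genes had 15.2% in the first part (14.8 to 15.6) and 19.2% in the last (18.7 to 19.6), and the intervals of ectoderm-only regions, 16.9 to 20.7 and 13.9 to 17.5, lay apart from these. Regions inside genes with a peak in all 5 lists had more in the first part, at 23.1% (21.4 to 24.9). The share 5′ of the gene's midpoint was 51.1% (48.7 to 53.5) for ectoderm-only, 47.4% (46.8 to 48.02) for forebrain-only and 57.2% (55.1 to 59.2) for all-5 regions. These intervals cover counting error, and regions of 1 gene are not independent. The classes were not matched for gene length. Median distance from the 5′ end was 63462 bp for ectoderm-only and 84679 bp for forebrain-only regions.

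**Figure D5:**
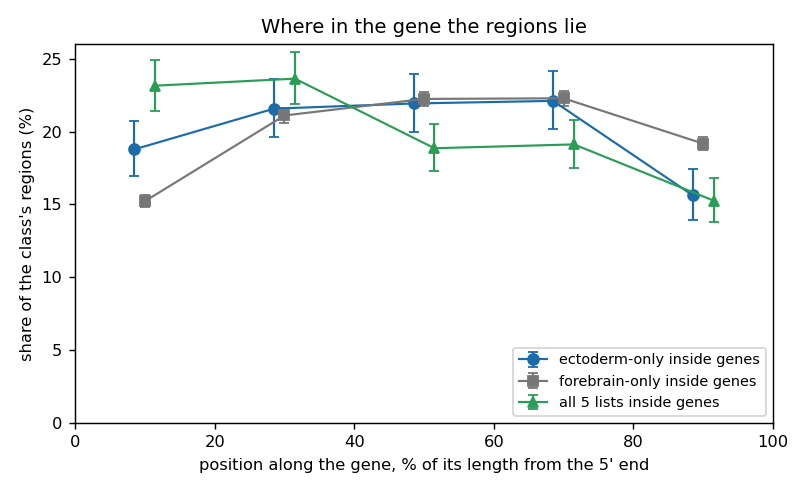
Share of regions in each of 5 equal parts of the gene from the 5′ end, for ectoderm-only, forebrain-only and all-5-list regions inside genes, with 95% exact intervals. Ectoderm-only regions (1683 with a known strand) run from 18.8% in the first part to 15.6% in the last, and forebrain-only regions from 15.2% to 19.2%.

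Summits of the 4 libraries lay close together. The choice of regions did not use summit positions, but it required overlapping peaks, which limits how far apart the summits can lie. The span of the 4 strongest summits had a median of 48 bp (quartiles 30 and 84, highest 745), and it was within 50 bp in 52.4% of regions (50.3 to 54.5). Regions inside genes with a peak in all 5 lists had a median of 47 bp, and ectoderm-only regions outside protein-coding genes 52 bp, with 48.2% within 50 bp (46.3 to 50.03). Summits of the pair of forelimb libraries were a median of 22 bp apart and those of the hindlimb pair 23 bp. The span thus did not set regions inside genes apart from regions open in all 5 lists. Merged widths had a median of 492 bp (quartiles 405 and 616), between 329 bp for forebrain-only and 780 bp for all-5 regions, and a width depends on how many lists were merged.

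The ends of host genes were mostly open in both tissues. A peak within 1 kb of a gene end was found in all 5 lists for 62.8% (60.3 to 65.2) of host genes and 53.9% (53.1 to 54.7) of genes without such a region. End peaks in all 4 ectoderm lists and not in forebrain occurred in 10 host genes, 0.636% (0.305 to 1.17), against 0.575% (0.461 to 0.709) of the others. End peaks in forebrain and no ectoderm list occurred in 74, 4.71% (3.71 to 5.87), against 4.20%, among them Dmd and Tiam1. No list had an end peak for 11.3% (9.80 to 13.0) of host genes and 19.5% of the others, and Zfhx3, Runx2 and Unc13c were of this kind. Gene length went with these shares. Among genes with 25 to 100 kb of interior the all-5 shares were 60.2% (55.9 to 64.3) and 59.8% (58.4 to 61.2), and among those with 100 to 400 kb they were 66.4% (62.6 to 70.1) and 58.2% (55.4 to 60.9). Host genes with no forebrain-only region numbered 244, or 15.5% (13.8 to 17.4), against 57.7% of all genes with an interior. That contrast was not split by length. A longer gene has more room for a forebrain-only region, and the median interior was 110 kb in host genes and 20.8 kb over all genes. The part of length in it was not tested.

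Local background was over 2 times the library rate in at least 1 ectoderm list for 693 of the 2157 regions and in all 4 lists for 187. It was over 5 times in 14. Over the set its median was 1.53, 1.54, 1.41 and 1.67 times the library rate.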

How the data were processed

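ATAC-seq peaks of 4 ectoderm libraries and 1 forebrain library were used. Per the submitters' processing notes, the build was mm10 and the tools were MACS2 2.1.1.20160309, Bowtie2 2.3.5, cutadapt 1.16, bedtools and Picard. A shift of reads to the transposase cut is not mentioned there. Each library has its own deposited narrowPeak list, called separately. The authors' values are a score (not used), a fold enrichment (a ratio to local background), −log10 p and −log10 q, and the offset of the summit. The lowest −log10 q was 1.30 to 1.31 in the deposited lists. They hold no read totals, so depth is unknown. The library background rate, solved under the MACS2 Poisson model, 3.10, 3.68, 4.36, 4.12 and 4.62 reads per position, compares depths only if the same extension length was used.

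Peaks on chromosomes 1 to 19 and X were merged where they shared at least 1 bp. Protein-coding genes (21631) and their ends came from a RefSeq table of GRCm38.p6, and strand from RefSeq start windows for 17274 of them. Local background was solved per peak from fold and p, for at least 97.8% of peaks in every list. The tolerance was 0.01 in −log10 p and grew in proportion to it for strong peaks.

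No test was made, since forebrain has 1 library and peak presence chose the regions. The 95% intervals of shares are exact Clopper-Pearson ones and cover counting error alone. The regions and the 16 gene lists (408 entries, all found) were chosen with earlier results of these data known. Genes named are the 15 with most regions, up to 5 per list, the 12 strongest regions, the 10 densest genes with at least 3 regions and those at the edge of the rule. A few genes that meet it are left out of the text and figures. Genes at annotated starts fall outside this rule and were chosen after their values were seen. The merging and counting code was tested on simulated data. Analyses used Python 3.11.15, pandas 2.3.3 and scipy 1.17.1.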

Additional observations from a re-analysis of the deposited data

How the results depend on the processing

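The counts depend on the peak threshold and on hindlimb replicate 1. The 2157 regions became 1428 with all lists held to a −log10 q of at least 5. With the ectoderm lists alone held to it there were 1295 regions, 1041 host genes, an ectoderm-only share of ectoderm-only and forebrain-only regions of 3.24%, and 36 regions in the junction, hemidesmosome and epidermal transcription factor lists (61 as reported). Leaving out each ectoderm library in turn gave 2209 to 4383 regions, 1606 to 2669 host genes, shares of 5.81% to 11.2%, 62 to 102 regions in those 3 lists, and a median summit span of 39 to 44 bp. The highest counts were those without hindlimb replicate 1. The share was 6.35% without forelimb replicate 1, 6.26% without forelimb replicate 2, 18.6% with lists of equal length, 5.64% beyond 10 kb from gene ends and 5.26% with no forebrain peak within 1 kb. With regions of high local background left out it was 4.10%, and the 3 lists held 25 regions, with 1464 in the whole set. The cause of these changes was not tested. The other settings kept these counts within 1.5 times, and the median summit span stayed between 39 and 51 bp over all 16 settings. Of 77 named genes, 42 changed their count by over 1.5 times with regions of high local background left out, 23 at a −log10 q of 5 or more in every list and 19 without hindlimb replicate 1.

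No paired analysis was possible because no result came from a test, although the limbs share replicate numbers. Motif shares over the regions and both of their alternatives were not run, since no genome of this build was used here. Depth is unknown, and the shorter list of hindlimb replicate 1 and the single forebrain library limit every absence of a peak.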
